A study of Mus musculus with 12 samples.

Results

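Cells that carried transcripts of several Dlx or GABA genes were examined in the dentate gyrus of mice at postnatal day 7 (P7). They were chosen by their own UMI counts (a unique molecular identifier, UMI, is a tag that counts 1 captured transcript). A cell was taken when at least 3 of the 7 genes Gad1, Gad2, Slc32a1, Dlx1, Dlx2, Dlx5 and Dlx6os1 had at least 1 UMI. Of 24213 cells that had over 500 genes detected and under 15% of UMIs from mitochondrial genes, 59 met this rule. They are called Dlx/Gad2-positive cells, because the defining genes of mature GABAergic interneurons were at or near 0 in them. The name is a short form, since Gad2 itself was detected in 41 of the 59 cells. The 3 libraries, 1 for each genotype, were made from 3 to 4 dentate gyri of littermates combined. The wild-type library came from mice with floxed Larp7 alleles (Larp7f/f) and no Cre. The second came from Larp7f/f mice with nestin-Cre, a transgene active in neural stem and progenitor cells of the whole central nervous system. The third came from Larp7f/f mice with Emx1-Cre, which is active in the dorsal forebrain lineage. For both mutant libraries the sample title and the genotype entry in the labels name opposite Cre lines, and the titles were followed here, so every direction between the nestin-Cre and Emx1-Cre libraries depends on the titles. The cell numbers that the study gives for the Cre lines are nearest to the barcode numbers of the libraries so titled. Of the 59 cells, 3 were in the wild-type library, 26 in the nestin-Cre library and 30 in the Emx1-Cre library.

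GABAergic interneurons of the hippocampus are born in the ventral forebrain and migrate into the dentate gyrus, whereas granule neurons arise from the dorsal, Emx1-expressing lineage. The homeobox genes Dlx1, Dlx2, Dlx5 and Dlx6 direct the GABAergic programme, Gad1 and Gad2 encode the enzymes that make GABA, and Slc32a1 encodes the transporter that loads GABA into vesicles. Larp7 protein binds and stabilises 7SK RNA, which holds the elongation factor P-TEFb in an inactive complex. Cells of ventral origin would meet Cre from the nestin transgene but not from Emx1, which is why the level of Larp7 was set side by side in the mutant libraries.

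The 3 libraries held 26689878 to 28918491 UMIs, and the median depth of a retained cell was 1782 UMIs for wild type, 3644 for nestin-Cre and 3873 for Emx1-Cre. Between 11 and 23 barcodes were shared by any pair of libraries, and none belonged to a Dlx/Gad2-positive cell. The Dlx/Gad2-positive cells were deeper, with medians of 4505, 4610.5 and 4276 UMIs, and their sums were 12989, 129975 and 139521 UMIs. Levels are given as CPM, a gene's UMIs scaled so that the UMIs of these cells reach the same total in each library. With 1 library per genotype no test was possible, so that a difference between libraries may come from the animals or the preparation as much as from the genotype. The 95% intervals in parentheses take in the error of counting and nothing else.

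Dlx1 and Dlx2 were the most widely detected rule genes, in 55 and 57 of the 59 cells. Gad2 was detected in 41 cells, Dlx5 in 40, Dlx6os1 (a non-coding RNA beside Dlx5 and Dlx6) in 38, Slc32a1 in 12 and Gad1 in only 3. Gad1 or Gad2 was detected in 41 of the 59 cells, and Gad1, Gad2 or Slc32a1 in 45. The remaining cells met the rule through the Dlx genes and Dlx6os1 alone. Since these genes chose the cells, their levels are a description. In the wild-type, nestin-Cre and Emx1-Cre libraries, Dlx1 had 14, 130 and 117 UMIs, Dlx2 had 6, 98 and 116, and Gad2 had 2, 42 and 53. Slc32a1 had 1, 5 and 8 UMIs and Gad1 had 0, 2 and 1. Dlx5 had 2, 30 and 47 UMIs, fewer than Gad2. Their ratios between the mutant libraries are a description too, because every cell had to hold at least 3 of these genes. The nestin-Cre to Emx1-Cre ratio was 1.19 (0.922 to 1.54) for Dlx1, 0.907 (0.686 to 1.20) for Dlx2, 0.851 (0.554 to 1.30) for Gad2 and 0.685 (0.418 to 1.11) for Dlx5.

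Genes that the rule did not use separated these cells from the rest. Sp9, a zinc-finger factor of GABAergic precursors, was detected in 36 of the 59 cells (61.0%, 47.4 to 73.5%) and in 26 of 23677 cells with no rule gene (0.110%, 0.0717 to 0.161%). Dlx6 was detected in 18 of the 59 cells (30.5%) and in 0 of those 23677, which allows a share of up to 0.0127%. Just outside the limit, the 44 cells with exactly 2 rule genes had Sp9 in 3 cells and Dlx6 in 1, and 39 of them had Dlx1 and 38 had Dlx2. Just inside, the 16 cells with exactly 3 rule genes had Sp9 in 7 cells and Dlx6 in 5. The cells with 2 rule genes thus held mostly Dlx1 with Dlx2 and seldom Sp9, and 15 of them had a UMI of Eomes, a factor of the glutamatergic granule lineage.

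**Figure D1:**
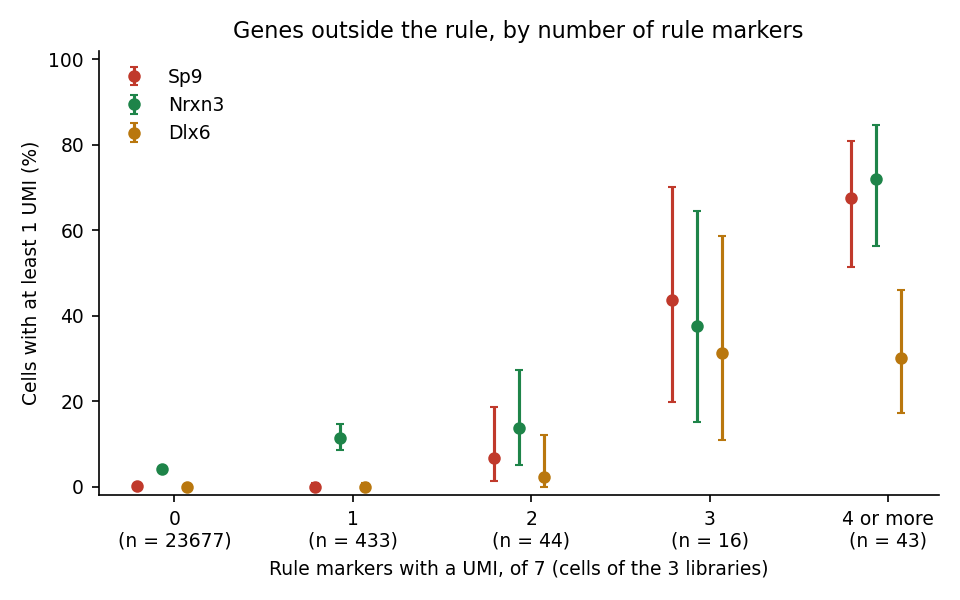
Percentage of cells with at least 1 UMI of Sp9, Nrxn3 or Dlx6 (vertical axis) by the number of the 7 rule genes detected in the cell (horizontal axis), over the 3 libraries, with 95% exact binomial intervals. Sp9 goes from 0.110% of cells with none to 67.4% of cells with 4 or more, and Nrxn3 from 4.25% to 72.1%.

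Ranked by their level against all other cells, among genes with at least 30 UMIs, the leading genes outside the rule included Sp9, St18, Rgs16, Tiam2, Nrxn3 and Sp8. Sp9 stood at 343 CPM against 0.390 in all other cells, an 879-fold ratio. St18, a zinc-finger factor, was 48.0-fold higher. Rgs16, a regulator of G protein signalling, was 23.7-fold higher. Tiam2, an exchange factor for the GTPase Rac, was 21.8-fold higher. Nrxn3, a presynaptic adhesion gene, was 20.4-fold higher, and Sp8, the partner of Sp9, 14.5-fold. The ranking chose these genes for their high levels in these same cells, so their levels by library are a description. Sp9 was at 354 CPM in the nestin-Cre and 344 in the Emx1-Cre cells, beside 0.353 and 0.591 in the pallial neurons of the same libraries (cells with at least 3 of 7 genes of the dorsal glutamatergic lineage). Ccnd2, a cyclin of cycling precursors, was the most abundant leading gene, at 5470.3 and 5985 beside 441 and 494. In the dividing Eomes-positive cells defined below it stood at 1732 and 1698.

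The labelled identity of GABAergic interneuron was met only in part. Of the genes listed for interneurons from the medial ganglionic eminence, a ventral birthplace, 10 of 15 had no UMI in any of the 59 cells, among them Lhx6, Nkx2-1, Sst and Pvalb. Lhx6 and Adarb2, markers of the medial and caudal lineages, were at 0 of 59 cells, which allows up to 5.08% of cells with a UMI and sets no limit on cells that use the gene, so that Larp7 could not be compared within either lineage. Among 16 neuropeptide and calcium-binding genes 11 were at 0, including Vip, Cck and Penk. Npy, the neuropeptide gene with the most UMIs, was found in 6 cells, 1 of 3 wild-type, 3 of 26 nestin-Cre and 2 of 30 Emx1-Cre, with 1 Emx1-Cre cell holding 9 of its 13 UMIs. Calb2 was found in 3 of 26 nestin-Cre cells (11.5%) and 8 of 30 Emx1-Cre cells (26.7%, 12.3 to 45.9%), beside 18.8% and 14.3% of the microglia of the same libraries, a class that should lack it and was shallower (median 3181.5 and 3189.5 UMIs). Neurod1, a granule lineage factor, was found in 26.9% (11.6 to 47.8%) and 10% (2.11 to 26.5%), beside 19.2% and 12.8% of microglia. In each case the microglia share lay within the interval of the Dlx/Gad2-positive cells, so neither share stood apart from background beyond counting error. By level, however, Calb2 in the Emx1-Cre cells was at 158 CPM beside 56.4 in the microglia of that library.

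Factors of progenitors and immature neurons were present instead. Sox4 and Sox11, which are raised in newborn neurons, were detected in all 59 cells, and Dcx, a microtubule protein of migrating neuroblasts, in 54. Gsx2, a factor that patterns the lateral ganglionic eminence, was found in 7 cells (11.9%, 4.91 to 22.9%) beside 0.0647% of the microglia of the 3 libraries together. Meis2, a gene of olfactory bulb neuroblasts, was found in 18 cells (30.5%) beside 2.20%. All 12 genes of the olfactory bulb neuroblast list had UMIs, with a summed level of 2988 CPM (2790 to 3196) against 2224 in all other cells. The list was higher still in pallial neurons, at 3451 in the nestin-Cre and 3314 in the Emx1-Cre library, beside 3101 and 2831 in the Dlx/Gad2-positive cells. Eomes was found in 11 of 26 nestin-Cre cells (42.3%, 23.4 to 63.1%) and 4 of 30 Emx1-Cre cells (13.3%, 3.76 to 30.7%), with 20 and 8 UMIs, a ratio of 2.68 (1.13 to 7.04). Microglia of the same libraries had it in 5.13% and 5.43% of cells. Sox9 and Sox2, genes of neural stem cells, were found in 42 and 34 cells. Microglia of the nestin-Cre and Emx1-Cre libraries had Sox9 in 10.0% and 16.7% of cells and Sox2 in 12.2% and 16.3%. Prox1, which marks granule neurons and also caudal interneurons, was found in 41 cells (69.5%), beside 80.0% of pallial neurons and 22.1% of microglia.

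**Figure D2:**
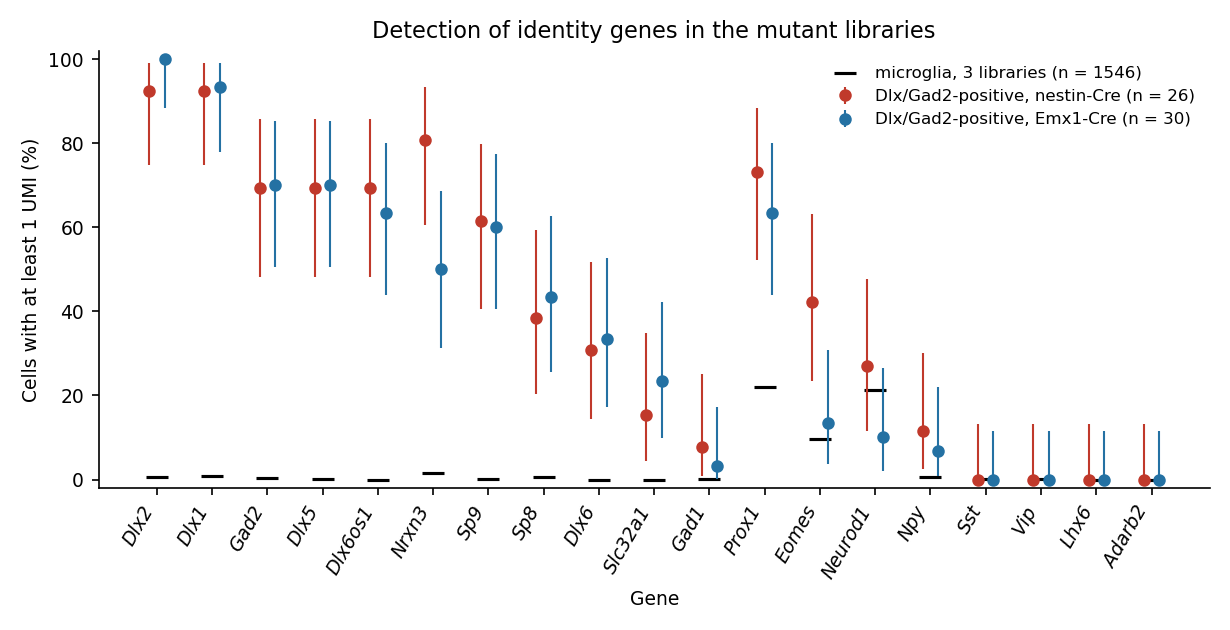
Percentage of Dlx/Gad2-positive cells with at least 1 UMI of each gene (vertical axis) in the nestin-Cre (26 cells) and Emx1-Cre (30 cells) libraries, with 95% exact binomial intervals, and in microglia of the 3 libraries as black dashes. Dlx2 and Dlx1 are in at least 92.3% of cells in both libraries, and Sst, Vip, Lhx6 and Adarb2 are at 0.

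Some cells held genes of other classes. With a limit of 3 genes, 1 Emx1-Cre cell carried 5 of 6 Cajal-Retzius genes together with 4 of 7 dorsal lineage genes and 4 of 9 oligodendrocyte lineage genes. It had the most UMIs of all 59 cells (10700), and held 26 of the 27 Reln UMIs and 89 of the 113 Meg3 UMIs of its library. Another Emx1-Cre cell carried 5 of 7 microglia genes and 59 of the 82 Apoe UMIs. A further Emx1-Cre cell held all 7 rule genes with 4 dorsal lineage genes. None of the 26 nestin-Cre cells carried 3 genes of any of these classes. The endothelial list had 1 UMI over the 59 cells together. In contrast, 27 of the 59 cells had at least 3 of 10 astrocyte genes, 11 of 26 in the nestin-Cre and 15 of 30 in the Emx1-Cre library. Of that list, Aqp4 and Aldh1l1 were at 0. Fabp7 was found in 46.2% of the nestin-Cre and 53.3% of the Emx1-Cre cells, beside 47.2% and 58.5% of the microglia of those libraries. Sox9 was above its microglia share in both libraries. The part of mixed droplets in the values below was not tested, and values that turn on these cells are given without them.

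Many of the cells were dividing. Cells with at least 10 of 20 cell cycle genes numbered 24 of 59: 1 of 3 in the wild-type library, 13 of 26 in the nestin-Cre library (50%, 29.9 to 70.1%) and 10 of 30 in the Emx1-Cre library (33.3%, 17.3 to 52.8%). The intervals of the mutant libraries overlapped. This limit was set after the values were seen, 7 of the 59 cells lay at 8 to 11 genes, and the cells above it were deeper (median 6157 against 3364 UMIs). When each cell was thinned to 1500 UMIs, cells with at least 5 of the 20 genes were 13 of 26 (50%) in the nestin-Cre and 13 of 28 (46.4%) in the Emx1-Cre library, which left out 2 shallower Emx1-Cre cells. Among pallial neurons the thinned shares were 5.82% and 8.22%. The summed level of the 20 genes was 7978 CPM (7500 to 8479) in the nestin-Cre and 7547 (7098 to 8017) in the Emx1-Cre cells, a ratio of 1.06 (0.969 to 1.15), beside 1558 and 1828 in pallial neurons. It was higher, at 10369 and 9040, in the dividing Eomes-positive cells defined below, which were chosen by these 20 genes.

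Few genes outside the rule had enough UMIs to be compared between dividing and other cells. All 10 UMIs of Gsx2 were in dividing cells. Sp9 stood at 0.840 (0.449 to 1.61) of its level in the other cells in the nestin-Cre library and at 0.963 (0.517 to 1.77) in the Emx1-Cre library. Dcx was lower in dividing cells of the Emx1-Cre library, at 0.456 (0.228 to 0.861), and at 0.582 (0.329 to 1.03) in the nestin-Cre library.

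**Figure D3:**
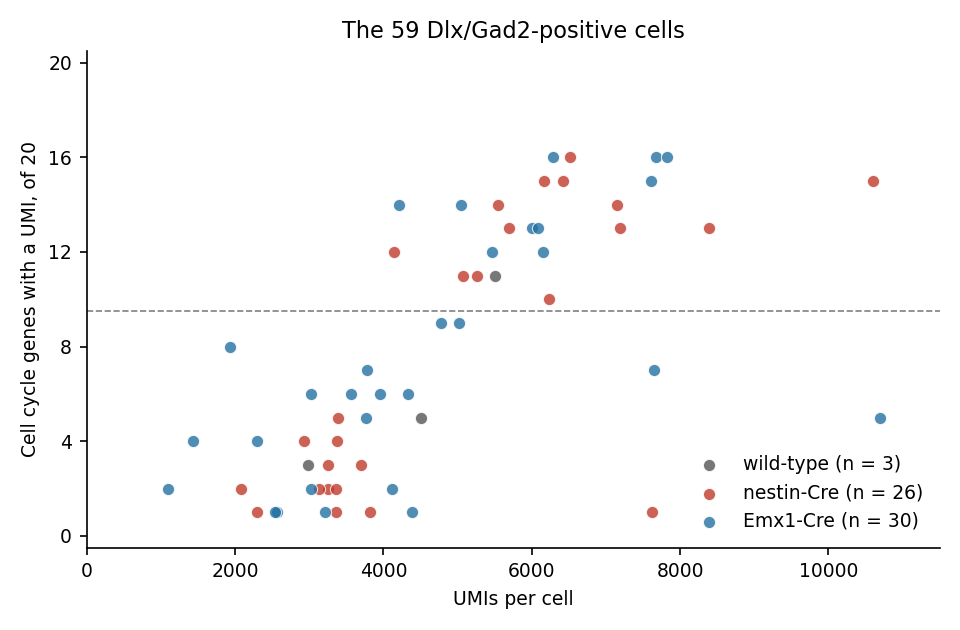
Number of cell cycle genes with a UMI, of 20 (vertical axis), against UMIs per cell (horizontal axis) for each of the 59 Dlx/Gad2-positive cells, coloured by library, with a dashed line just below the limit of 10 genes. Dividing cells sit to the right, with a median of 6157 UMIs against 3364, and both mutant libraries have cells on each side of the line.

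The Dlx/Gad2-positive share of cells was 0.0273% (0.00563 to 0.0797%) in the wild-type library, 0.389% (0.254 to 0.569%) in the nestin-Cre library and 0.459% (0.310 to 0.655%) in the Emx1-Cre library. The mutant libraries did not differ beyond counting error, with a ratio of 0.847 (0.481 to 1.48). Both were above the wild-type library, 14.3-fold (4.37 to 73.6) for nestin-Cre and 16.8-fold (5.24 to 86.2) for Emx1-Cre. After thinning every cell to 1500 UMIs, 1 of 6212, 14 of 6088 and 18 of 6092 cells met the rule. Another rare class is given beside this. Cells with at least 3 of the Cajal-Retzius genes Trp73, Lhx1, Lhx5, Reln, Ndnf and Ebf3 numbered 10, 86 and 27, so their share was also above wild type, by 14.1-fold (7.33 to 30.6) and 4.55-fold (2.13 to 10.5). After thinning to 1500 UMIs these ratios were smaller, at 7.58 (3.43 to 19.8) and 2.62 (1.04 to 7.43). The thinned ratios of the Dlx/Gad2-positive share were 14.3 (2.17 to 604) and 18.4 (2.90 to 765), with 1 wild-type cell. More such cells in the tissue and more captured from it cannot be told apart with 1 library per genotype, and the part of the dissection in these shares was not tested.

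In the 3′ libraries a UMI marks the end of a transcript, so Larp7 UMIs measure how much transcript was left and not the deletion itself. The floxed exon is exon 9 of 13 in the transcript of GENCODE vM21, coding over its whole 125 bases, at chr3:127544154-127544278 on the minus strand of GRCm38. A further 698 bases of transcript lie downstream of it, which is where these libraries read. Because 125 is not a multiple of 3, loss of the exon shifts the reading frame. The reference sequence of the exon, from the RefSeq genome of that build, is given in lower case to show the segment that Cre removes.

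Larp7 exon 9: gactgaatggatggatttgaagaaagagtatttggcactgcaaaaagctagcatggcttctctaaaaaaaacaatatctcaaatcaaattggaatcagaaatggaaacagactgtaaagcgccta

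Larp7 had 1 UMI in the 3 wild-type cells, 0 UMIs in the 26 nestin-Cre cells and 4 UMIs in the 30 Emx1-Cre cells. The 4 UMIs came from 4 different cells, or 13.3% of the Emx1-Cre cells (3.76 to 30.7%), beside 12.4% of the microglia in that library. Microglia use Larp7 themselves, so no class that lacks it was at hand, and the part of free RNA in these UMIs was not tested. These counts stand for 77.0 CPM (1.95 to 429) in the wild-type cells, for up to 23.1 in the nestin-Cre cells, the level of 3 UMIs, and for 28.7 (7.81 to 73.4) in the Emx1-Cre cells. The nestin-Cre to Emx1-Cre ratio had an upper limit of 1.63, so a difference between the mutant libraries was not detectable at this depth. Relative to the same ratio in pallial neurons, the upper limit was 2.17, and relative to microglia it was 1.69.

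The other classes of the same libraries give these counts a scale. Pallial neurons had Larp7 at 56.0 CPM (50.2 to 62.3) in the wild-type, 10.2 (8.47 to 12.3) in the nestin-Cre and 13.4 (11.4 to 15.7) in the Emx1-Cre library. Microglia, which neither Cre line targets, had 57.6 (47.4 to 69.4), 38.6 (29.6 to 49.4) and 37.6 (26.3 to 52.1). Their mutant to wild-type ratios were 0.669 (0.482 to 0.921) and 0.653 (0.435 to 0.959). The wild-type microglia held more immature neuron transcripts, at 9350 CPM against 4357 in the nestin-Cre and 4902 in the Emx1-Cre microglia. Sox11 was found in 62.8%, 35.0% and 28.3% of them. The microglia genes stood lower in wild type, at 11032 CPM against 16700 and 15590. The part of other cells' transcripts in the microglia ratios of Larp7 was not tested. At the wild-type level of pallial neurons, 7.28 Larp7 UMIs would fall in the nestin-Cre cells, where 0 were found, and 7.81 in the Emx1-Cre cells, where 4 were found. At the level of the mutant pallial neurons, 1.33 and 1.87 would. The limit of 23.1 in the nestin-Cre cells lies below the interval of wild-type pallial neurons, but not after thinning to 1500 UMIs, where 3 UMIs stand for 143 CPM. Pallial neurons are another class, however. Within the Dlx/Gad2-positive cells the nestin-Cre to wild-type ratio had an upper limit of 3.90. With 1 wild-type UMI, a loss of Larp7 within this class could not be measured. The interval of the Emx1-Cre cells holds both the wild-type and the mutant level of pallial neurons, so these counts do not place Larp7 in the Emx1-Cre cells at either.

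A class of dividing cells was added after the data were seen. Dividing Eomes-positive cells (at least 1 UMI of Eomes and at least 10 of the 20 cell cycle genes) had Larp7 at 109 CPM (96.7 to 122) in the wild-type, 17.7 (13.0 to 23.6) in the nestin-Cre and 19.4 (15.3 to 24.3) in the Emx1-Cre library. At the wild-type level of this class, 14.2 and 15.2 UMIs would fall in the nestin-Cre and Emx1-Cre Dlx/Gad2-positive cells. The classes are not matched, since 13 of 26 and 10 of 30 Dlx/Gad2-positive cells passed the same limit of cell cycle genes. The Emx1-Cre cells stood at 1.47-fold (0.392 to 3.93) the level of dividing Eomes-positive cells of their own library, and at 0.762-fold (0.197 to 2.13) that of its microglia. Neither of these Emx1-Cre ratios differed from 1 beyond counting error. The nestin-Cre cells, with 0 UMIs, had an upper limit of 0.758-fold the level of the microglia of their own library. At that microglia level, 5.01 UMIs would fall in the nestin-Cre cells. Their upper limit was 1.67-fold the level of dividing Eomes-positive cells and 2.81-fold that of pallial neurons of the same library. With the rule loosened to 2 of 7 genes, also after the data were seen, Larp7 UMIs were 6 in 16 wild-type, 2 in 41 nestin-Cre and 6 in 46 Emx1-Cre cells, or 78.4 (28.8 to 171), 9.48 (1.15 to 34.2) and 26.2 (9.61 to 57.0) CPM.

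**Figure D4:**
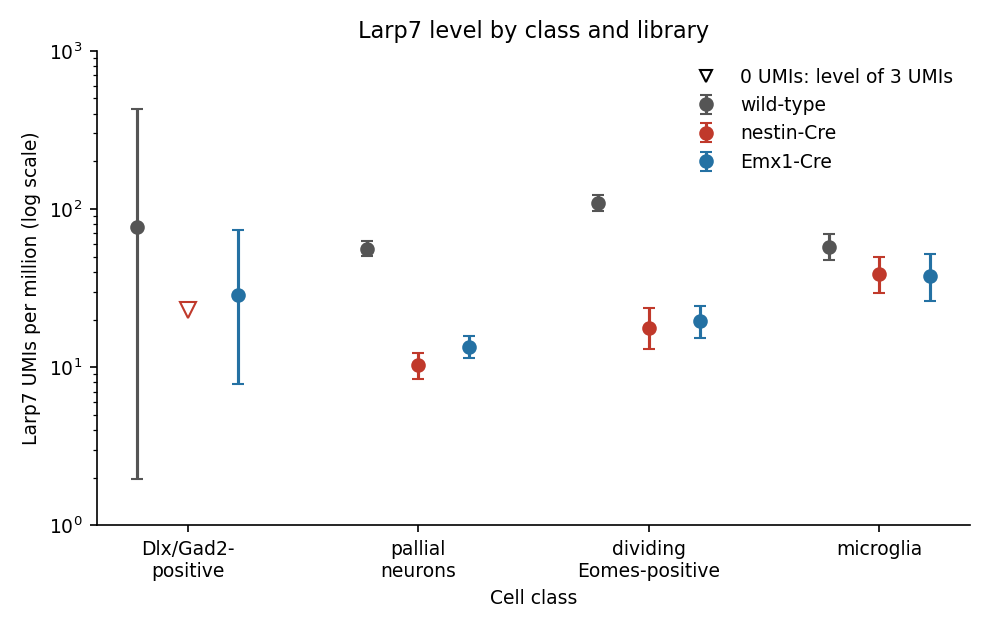
Larp7 CPM (vertical log axis) in 4 cell classes of the wild-type, nestin-Cre and Emx1-Cre libraries, with 95% exact Poisson intervals. The open triangle marks the level of 3 UMIs for the nestin-Cre Dlx/Gad2-positive cells, which had 0, and the Emx1-Cre interval of the same class runs from 7.81 to 73.4.

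The 7SK and P-TEFb genes were sparse. All 17 genes of this list, Larp7 included, had UMIs in the 59 cells, with 115 in the nestin-Cre and 147 in the Emx1-Cre cells, a ratio of 0.840 (0.652 to 1.08). Hexim1, which inhibits P-TEFb within the 7SK complex, had 4 and 5 UMIs. Mepce, the enzyme that caps 7SK RNA, had 10 and 4, a ratio of 2.68 (0.774 to 11.7). Cdk9, the kinase of P-TEFb, had 3 and 7. Its partner cyclin gene Ccnt1 had 6 and 20, a ratio of 0.322 (0.106 to 0.831), while Ccnt2 had 9 and 7. Supt5, an elongation factor that P-TEFb phosphorylates, had 4 and 16, at 0.268 (0.0653 to 0.832), and its partner Supt4a had 21 and 19. Aff4, a scaffold of the super elongation complex, had 24 in each. Only Ccnt1 and Supt5 of the genes named here had an interval that left out 1, and none of the 17 genes reached the 100 UMIs needed for the comparison across genes.

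Of 394 genes with at least 100 UMIs over both mutant libraries and outside the rule, 24 (6.09%) differed at least 1.5-fold. There were 14 higher (3.55%) and 10 lower (2.54%) in the nestin-Cre cells, and the median log2 ratio was 0.07. In pallial neurons, which were far deeper (11319090 and 11843714 UMIs), 8 of the same 394 genes were past 1.5-fold. Counting error alone puts more genes past the limit at low depth, so the counts of the 2 classes are not alike. With at least 200 UMIs per gene, 2 of 185 genes were past it in the Dlx/Gad2-positive cells. Without the cells that held 3 genes of any other class, astrocyte genes included, 15 cells were left in each mutant library and 3 of 166 genes were past 1.5-fold. The histone gene Hist1h2ap had the largest difference upward, with 210 UMIs in the nestin-Cre and 96 in the Emx1-Cre cells, a ratio of 2.35 (1.84 to 3.02). It was found in 15 of 26 and 8 of 30 cells, and had 2 UMIs in wild type. Prc1, a cytokinesis gene, had 70 and 46 UMIs (1.63, 1.11 to 2.42), and Mki67, the Ki-67 antigen of cycling cells, 89 and 59 (1.62, 1.15 to 2.29). 2810417H13Rik, a replication-associated gene, had 96 and 65 (1.59, 1.15 to 2.21). Top2a, which untangles DNA at division, had 130 and 96 and missed the fold limit at 1.45. The cell cycle list as a whole differed less. Of its 5 members with at least 100 UMIs, 4 were higher and 1 lower, with a median log2 ratio of 0.23, and 1 was past 1.5-fold. The sum ratio of the list, 1.06, is given above. Hmgb2 had a log2 ratio of -0.02, and Cenpa and Cdca8, other genes of mitosis, had -0.23 and -0.19.

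Other genes higher in the nestin-Cre cells encode proteins of RNA handling, growth and chromatin. Hnrnpa3, an RNA-binding protein, stood at 1.68 (1.23 to 2.31). Ncl, the nucleolar protein nucleolin, stood at 1.54 (1.09 to 2.18). Btg1, an antiproliferative gene, was at 1.61 (1.08 to 2.41) and Smarca5, a chromatin remodeller, at 1.51 (1.01 to 2.28). Sox9 (1.42, 0.955 to 2.13) and Ywhaq (1.38, 1.01 to 1.90) completed the 10 highest genes of the ranking against both other libraries and missed the fold limit.

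Genes lower in the nestin-Cre cells included the immediate early genes Jun and Egr1. Jun had 53 UMIs in the nestin-Cre and 115 in the Emx1-Cre cells (0.495, 0.350 to 0.691), and 20 in the 3 wild-type cells. Egr1 had 46 and 109 (0.453, 0.314 to 0.645), and 9 in wild type. Over the 16 immediate early genes the sums were 293 and 443 UMIs, a ratio of 0.710 (0.610 to 0.825). All 3 members past 100 UMIs were lower, 2 of them past 1.5-fold, with a median log2 ratio of -1.02. Jun and Egr1 carried the list: the other 14 genes summed to 194 and 219 UMIs, a ratio of 0.951 (0.780 to 1.16), and Fos had 42 and 40. The same list stood at 0.736 (0.725 to 0.748) in pallial neurons of the same libraries and at 1.12 (1.08 to 1.15) in microglia. These genes also respond to dissociation, whose part was not tested.

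Gadd45g, a stress and differentiation gene, had 54 and 103 UMIs (0.563, 0.397 to 0.790), of which 28 were in 1 Emx1-Cre cell, and its log2 ratio was -1.14 in pallial neurons. Tra2b, a splicing factor, was at 0.589 (0.410 to 0.837), and Elavl4, an RNA-binding protein of neurons, at 0.635 (0.423 to 0.943). Crmp1, a protein of growing axons, had 34 and 62 UMIs (0.589, 0.376 to 0.908), short of the 100 UMIs needed to be counted among the 24. The heat shock gene Hspa8 was at 0.686 (0.556 to 0.844), short of the fold limit. Cct5, Slc25a5 and Gm3764, the remaining low genes of the ranking, stood between 0.669 and 0.688 with intervals that reached 1. Meg3 (45 and 113 UMIs) and Apoe (47 and 82) changed direction when the highest cell of each library was left out for each gene, with log2 ratios of 0.56 and 0.61 in place of -1.23 and -0.70, a setting chosen after the data were seen. Of the 24 genes, 18 were past 1.5-fold in the same direction under that setting, and Mki67 (0.56) and Gadd45g (-0.54) fell short of it.

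**Figure D5:**
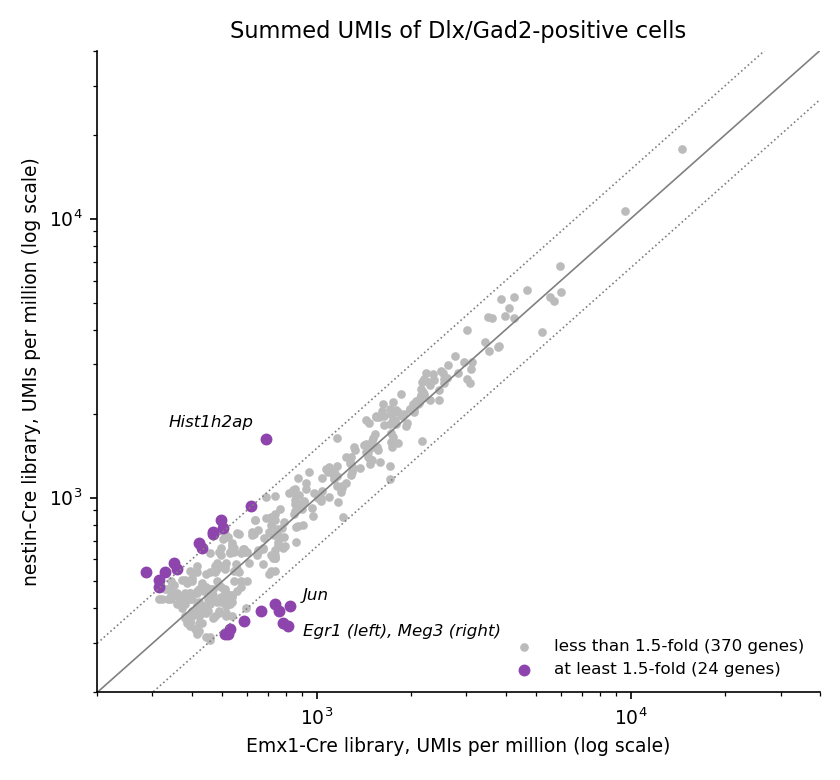
Summed CPM of the 26 nestin-Cre cells (vertical log axis) against those of the 30 Emx1-Cre cells (horizontal log axis) for 394 genes with at least 100 UMIs. The solid line marks equal levels and the dotted lines a 1.5-fold difference, and 24 genes lie outside them, with Hist1h2ap above and Jun, Egr1 and Meg3 below.

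Neuronal lists were close in the mutant libraries. The 15 immature neuron genes summed to 2671 and 3057 UMIs (0.938, 0.890 to 0.988), with 4 of 13 measured members higher, 9 lower and none past 1.5-fold, and a median log2 ratio of -0.09. The 20 interneuron transcription factors stood at 0.974 (0.894 to 1.06), with the most UMIs from Nfib (346 and 419) and Nfix (289 and 289). The 20 GABA genes other than the rule genes stood at 1.09 (0.785 to 1.51). Among them Ncald, a calcium sensor, had 22 and 37 UMIs (0.638, 0.359 to 1.11), and Gabbr1, a GABA receptor subunit, had 11 and 4 (2.95, 0.875 to 12.7). The 23 measured synapse and maturation genes stood at 0.754 (0.668 to 0.850), and at 0.998 (0.872 to 1.14) without the 3 Emx1-Cre cells that held genes of other classes.

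Markers of interneuron lineages were few. Of the medial list, Sox6 had 17 UMIs in the nestin-Cre and 16 in the Emx1-Cre cells, and Satb1, a chromatin organiser, 8 and 19 (0.452, 0.171 to 1.08). Of the caudal list, Prox1 had 43 and 42, Sp8 had 15 and 15, and Nr2f2 had 8 and 17 (0.505, 0.189 to 1.24). The neuropeptide list summed to 18 and 64 UMIs, of which Reln in 1 Emx1-Cre cell made up 26. The olfactory bulb neuroblast list stood at 1.10 (0.951 to 1.26), and its member Meis2 had 22 and 10 UMIs (2.36, 1.07 to 5.59). The migration list stood at 0.850 (0.674 to 1.07), the p53 target list at 0.834 (0.643 to 1.08), and the astrocyte list at 1.40 (1.12 to 1.76). In other classes of the same libraries the astrocyte list went the other way. It stood at 0.723 (0.710 to 0.737) in pallial neurons, 0.753 (0.728 to 0.778) in dividing Eomes-positive cells and 0.599 (0.570 to 0.629) in microglia.

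Against wild type the 3 cells gave little depth. Of 204 genes with at least 100 UMIs, 29 were at least 1.5-fold higher in the nestin-Cre cells (14.2%) and 21 lower (10.3%). Of 210 genes, 28 were higher in the Emx1-Cre cells (13.3%) and 30 lower (14.3%). In pallial neurons the counts for the same genes were 1 and 4 for nestin-Cre and 1 and 0 for Emx1-Cre. The wild-type pallial neurons held 6017836 UMIs, so counting error moves fewer genes past the limit there. The level of 3 UMIs in the wild-type cells was 231 CPM, so genes below that level could not be placed. Jun was at 0.265 of the wild-type level in the nestin-Cre cells (0.156 to 0.468), and 15 of its 20 wild-type UMIs came from 1 cell. Hspa8 was at 0.353 (0.250 to 0.508), with 21 of 43 wild-type UMIs from 1 cell. The 20 cell cycle genes had 39 UMIs in the wild-type cells, of which 1 was dividing.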

How the data were processed

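Single cells of P7 dentate gyri were sequenced with the 10x Genomics 3′ method. The deposited matrices hold whole UMI counts per gene and cell, made by the authors and not normalized; their headers name Cell Ranger 4.0.0, and the submitters' processing notes name mm10. Cells were kept with over 500 genes detected and under 15% of UMIs from mitochondrial genes, and no doublet caller was run: genes of 6 other classes were counted in each cell instead. UMIs of the Dlx/Gad2-positive cells were summed per library and divided by the library's sum over those cells. Each genotype had 1 library, which allowed no test. Intervals are exact Poisson for levels, Clopper-Pearson for shares and exact conditional binomial for ratios, and a count of 0 was given as the level or share of 3 counts. The 20 genes named between libraries were the 10 highest and 10 lowest in nestin-Cre by the smaller of the log2 ratios to wild type and to Emx1-Cre, where both had the same sign and the gene had at least 100 UMIs. The 7SK and P-TEFb genes, and the 3 genes with the most UMIs of each interneuron list, were named too. Other genes were named after their values were seen. Members and lists were chosen with earlier results of these data known. Calculations used Python 3.11.15, numpy 2.4.6, scipy 1.17.1 and pandas 2.3.3, and the scripts were tested on simulated data. Some genes of the naming rule and the lists are not reported here by name. Other assays of the series were not used here.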

Additional observations from a re-analysis of the deposited data

How the results depend on the processing

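No paired analysis was possible because each genotype had 1 library, and for the same reason no replicate could be left out. Larp7 in the nestin-Cre cells was 0 UMIs under every alternative run except 2 rule genes (2 UMIs), and the upper limit of its ratio to Emx1-Cre went from 1.63 to 3.25 with 4 rule genes, 33.3 without cells of another class and 50.1 after thinning to 1500 UMIs. The wild-type Larp7 level, resting on 1 UMI, was 0 with at least 4 of 7 rule genes, with Gad1 or Gad2 required, without cells of another class and after thinning to 1500 UMIs. Genes past 1.5-fold between the mutant libraries, 24 at first, of 394 (6.09%), numbered 12 of 263 (4.56%) with 4 rule genes, 3 of 166 (1.81%) without cells of another class, 5 of 57 (8.77%) after thinning and 51 of 720 (7.08%) with 2 rule genes. They numbered 117 of 944, 2 of 185 and 4 of 394 with at least 50 UMIs, at least 200 UMIs and a 2-fold limit. Against wild type the nestin-Cre counts under these last 3 settings were 147, 21 and 15, and 10 after thinning, and the Emx1-Cre counts were 173, 25 and 22, 9 after thinning and 35 without cells of another class. The share of cells was 0.224% (nestin-Cre) and 0.230% (Emx1-Cre) without cells of another class, 0.230% and 0.295% after thinning, and 0.145%, 0.613% and 0.704% for wild type, nestin-Cre and Emx1-Cre with 2 rule genes.

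The list ratios of nestin-Cre to Emx1-Cre moved as follows. With 4 rule genes they were 0.934 for cell cycle, 0.975 for synapse, 0.879 for immature neuron and 0.886 for transcription factor genes. With Gad1 or Gad2 required, synapse was 0.863 and immature neuron 0.871. Without cells of another class synapse was 0.984, and with the astrocyte list not counted it was 0.998 and cell cycle 0.926. After thinning, cell cycle was 0.919, transcription factors 0.786 and synapse reversed at 1.16. With 2 rule genes, cell cycle was 0.734 (median log2 -0.54), immediate early 0.878 (median -0.30), synapse 0.942, transcription factors 1.07, and immature neuron reversed at 1.04. Log2 ratios reversed for Smarca5 (-0.22) and Tra2b (0.073) after thinning and for Prc1 (-0.18) with 2 rule genes. Without Jun and Egr1 the immediate early ratio was 0.951. The causes were not tested, apart from the fewer genes and UMIs that these settings leave. The settings with 2 rule genes, without the astrocyte list and without Jun and Egr1 were chosen after seeing the data. Depth limits Larp7: the nestin-Cre cells held 129975 UMIs, in which 3 UMIs stand for 23.1 CPM.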
